A study of Mus musculus with 12 samples.

Results

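The complement genes of the mouse hippocampus were followed through 12 bulk RNA-seq libraries of Dek knockout and wild-type mice. The set held 9 genes, taken by symbol from the 26409 genes of the deposited table: the chains C1qa, C1qb and C1qc, the proteases C1ra and C1s1, the components C4b, C3 and Cfb, and the receptor C3ar1. All 9 averaged 0.1 TPM or more (TPM is a transcript level corrected for transcript length and library size) and were tested among 18197 genes. C4b had the lowest p of the 9, with 68.5 ± 12.7 TPM in Dek cKO against 49.9 ± 8.09 TPM in WT (SD, n = 6 each), and no complement gene passed the test across all genes.

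Complement is a cascade of secreted proteins that marks debris, microbes and synapses for removal. In the classical pathway, C1q binds its target and the proteases C1r and C1s then cleave C4 and C2, which leads to cleavage of C3. The alternative pathway, which uses factor B, amplifies that step, and small fragments of C3 signal through the receptor C3aR. In the brain, C1q is made mostly by microglia and C4 by glia and neurons, and complement is known for its part in the pruning of hippocampal synapses.

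Hippocampi were microdissected from WT and Dek cKO mice of 6 to 12 months, with 3 libraries for each of female WT, male WT, female cKO and male cKO. DEK is a chromatin protein. The cKO allele was a floxed Dek deleted in the germ line with CMV-Cre, which was then bred out of the colony, so that the deletion was constitutive and not limited to the brain. All mice had been through behavioral tests before the tissue was taken. The groups did not share 1 background of library names, since the deposited columns of the 3 female WT libraries began with C57 and those of the other 9 with CMV, so that in females this prefix and the genotype cannot be told apart.

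Dek itself was at 44.2 to 51.9 TPM in the 6 WT libraries and at 5.55 to 9.25 TPM in the 6 cKO libraries, which matched the genotype label of every library. The sex labels of 2 libraries went against their Y-linked genes. Eif2s3y was at 72.7 TPM in the library labelled female cKO 3 and at 0.11 TPM in that labelled male cKO 1, and Ddx3y, Kdm5d and Uty followed the same split. Main values within each sex are therefore given with and without both. Library totals of the table were 825750 to 845553 TPM, and read depth is unknown from TPM. The neuronal markers Prox1, Wfs1, Fibcd1, Spink8, Neurod6, Rbfox3 and Snap25 summed to 2072 to 2303 TPM over the 12 libraries. The microglial marker Tyrobp was listed at 0 in all 12.

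The genes lie in a few places of the genome (GRCm38). C1qa, at 4:136895917-136898803, C1qc, at 4:136889804-136893065, and C1qb, at 4:136880129-136886187, stand next to each other on the minus strand. C1ra (6:124512405-124523443, plus strand) and C1s1 (6:124530345-124542359, minus strand) are also neighbours, and C3ar1 is on the same chromosome at 6:122847138-122856161. C4b (17:34728380-34743882) and Cfb (17:34856374-34862518) belong to the major histocompatibility region, and C3 lies farther along chromosome 17 at 57203970-57228136.

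C4b has a near copy, C4a, and short reads from the pair can be hard to place. No value of C4a was used here, and reads of C4a may be counted in the value of C4b. Aligned to each other, the longest coding C4b transcript and the longest C4a transcript were identical at 96.1% of 5367 bases, and 16.5% of the windows of 100 bases (the read length) in C4b were also in a C4a transcript. The same share was 34.5% for C1ra against its copy C1rb, of which no value was used here either and whose reads may be counted in C1ra, and 7.9% for C1s1 against C1s2, while C1qa, C1qb, C1qc and Cfb shared no such window with each other or, for Cfb, with C2. For windows of 31 bases, the length that kallisto matches by default, the shares were 48.8% for C4b, 56.9% for C1ra and 36.5% for C1s1. The values of these genes are therefore uncertain, by an amount that these shares do not bound. The stretch of C4b coding sequence that differs most from C4a is shown (GENCODE M21, coding bases 2705 to 2764, plus sense). Its 13 differing bases of 60 are in capitals. It is not the only place where a read can be told apart.
C4b: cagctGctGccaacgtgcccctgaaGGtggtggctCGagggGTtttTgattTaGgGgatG
C4a: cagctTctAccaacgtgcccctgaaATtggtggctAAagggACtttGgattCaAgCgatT

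RefSeq start-site windows (GRCm38.p6) were at hand for 6 of the 9 genes, all but C1qa, C4b and Cfb. They are shown for C1qb and C1qc, the C1q chains with such a window. The 250 bases before each start were searched on both strands for the core of the site of PU.1, a factor of myeloid cells (GAGGAAGT), for the interferon-gamma motif GAS (TTCNNNGAA) and for the core of the interferon motif ISRE (GAAANNGAA). The first was found in C1qc, at positions -195 to -188 from the start and on the opposite strand, shown in capitals. It was the only match in the 6 genes, and over 32851 windows of the same length 2.44% held the PU.1 core, 7.02% GAS and 7.13% the ISRE core. A site can match more than 1 of these. Only exact matches were searched for, so sites that differ from these letters by a base were not counted. For C1ra, 34 of the 250 bases searched lay outside annotated exons. Bases within annotated exons are left out, which shortens C1qc to chr4:136893066-136893164, and C1qb is chr4:136886201-136886450, both 5′ to 3′ on the minus strand.
C1qc: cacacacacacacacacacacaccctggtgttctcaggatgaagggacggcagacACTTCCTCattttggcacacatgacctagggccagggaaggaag
C1qb: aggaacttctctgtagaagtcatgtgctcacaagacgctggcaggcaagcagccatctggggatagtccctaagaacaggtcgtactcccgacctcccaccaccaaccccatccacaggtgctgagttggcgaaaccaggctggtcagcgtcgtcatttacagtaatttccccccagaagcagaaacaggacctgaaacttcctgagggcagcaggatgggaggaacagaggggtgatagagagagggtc

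In TPM levels of the WT libraries, the order was C1qa, C1qb, C1qc, C4b, Cfb, C1s1, C1ra, C3 and C3ar1. The WT means ran from 75.6 ± 6.53 TPM (SD, n = 6) for C1qa to 0.922 ± 0.123 TPM for C3ar1. The ranges of the 6 WT libraries overlapped between C1qa and C1qb, C1qb and C1qc, C1qc and C4b, C1s1 and C1ra, and C3 and C3ar1. They did not overlap between C4b and Cfb (WT mean 6.66 TPM), Cfb and C1s1, or C1ra and C3. C1qb was above C1qc in 12 of 12 libraries, whereas C1qa was above C1qb in 10.

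**Figure D1:**
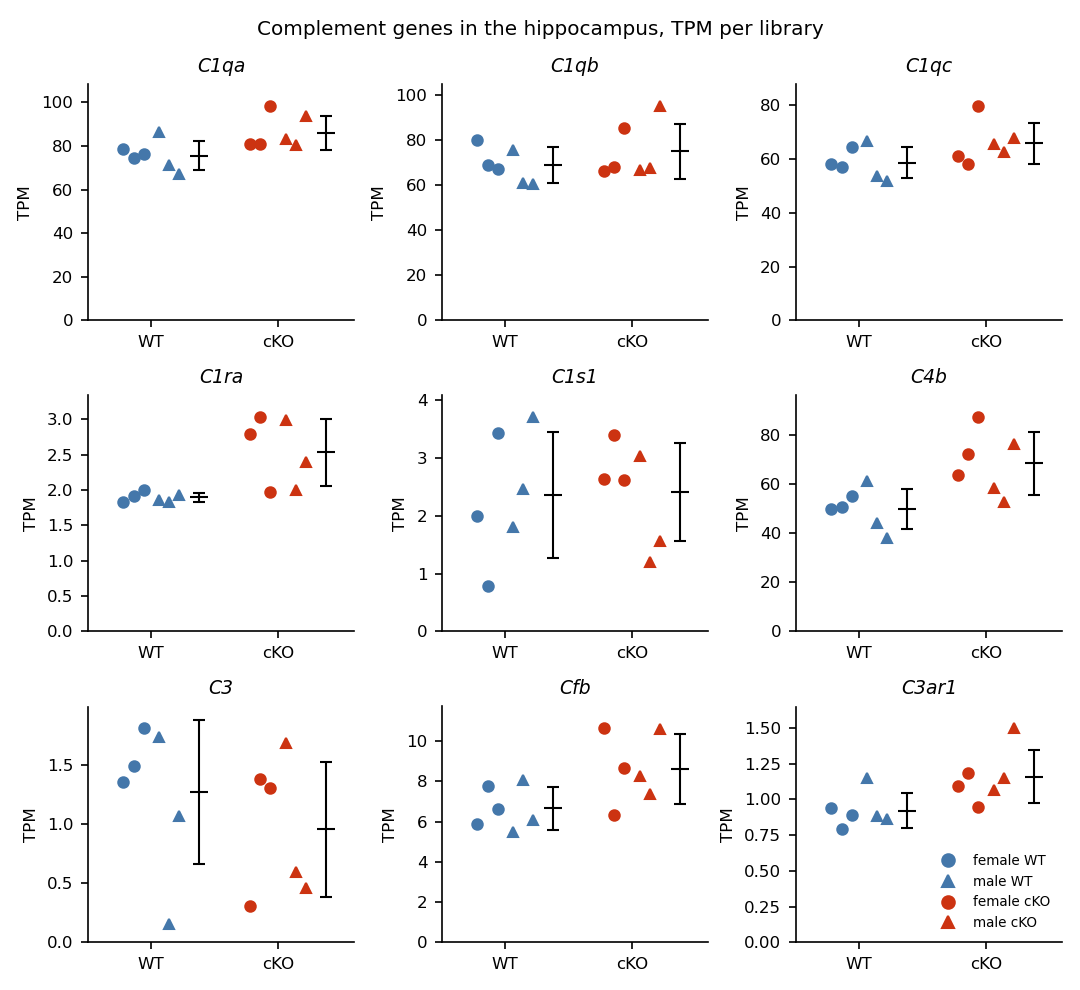
TPM (y axis, from 0) of the 9 complement genes in each library, by genotype (x axis), with circles for libraries labelled female and triangles for male, and black bars for the mean ± SD of 6. The genotypes overlapped for every gene; for C1ra, 5 of 6 cKO values lay above the highest WT value.

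C1q, the recognition subunit of the classical pathway, is built from 3 chains that are encoded by C1qa, C1qb and C1qc. C1qa was at 67.0 TPM in the lowest, 75.3 TPM at the median and 86.1 TPM in the highest WT library, and at 80.3, 81.9 and 98.3 TPM in cKO. All 6 cKO libraries were above the WT median and 2, female cKO 3 and male cKO 3, above the highest WT library, so the groups overlapped. The log2 fold change of C1qa was 0.19 ± 0.07 (SE), with a 95% interval from 0.04 to 0.34 and an adjusted p of 0.608 in limma.

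C1qb was at 60.5 TPM in the lowest, 68.0 TPM at the median and 79.9 TPM in the highest WT library, and at 66.3, 67.8 and 94.96 TPM in cKO. The medians were about equal, and the higher cKO mean came from female cKO 3 and male cKO 3. C1qc was at 52.0, 57.5 and 66.8 TPM in WT and at 58.1, 64.1 and 79.7 TPM in cKO. All 6 cKO libraries had more C1qc than the WT median, yet 2 exceeded the highest WT value. The log2 fold changes were 0.11 ± 0.10 for C1qb (adjusted p = 0.917, limma) and 0.16 ± 0.08 for C1qc (adjusted p = 0.781). In bulk tissue, more cells of a type and more RNA per cell cannot be told apart.

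The 3 chains varied in proportion between libraries, least so for C1qa. C1qa made up 37.7% ± 0.94 of their summed TPM (SD, n = 12), C1qb 33.4% ± 1.91 and C1qc 29.0% ± 1.40, and the sum itself ran from 179 TPM in male WT 3 to 263 TPM in female cKO 3. The share of C1qa was 36.2 to 38.4% in WT and 36.5 to 39.1% in cKO. The ratio of C4b to C1qa was 0.657 ± 0.059 in WT and 0.792 ± 0.097 in cKO (SD, n = 6), with overlapping ranges of 0.57 to 0.724 and 0.655 to 0.895. That of C1qb to C1qa was 0.910 ± 0.058 in WT and 0.865 ± 0.077 in cKO.

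C1ra and C1s1 encode the proteases that C1q carries. C1ra was at 1.83 TPM in the lowest, 1.89 TPM at the median and 2.00 TPM in the highest WT library, and at 1.97, 2.59 and 3.03 TPM in cKO. The WT values lay within a very narrow band, and 5 of 6 cKO values were above it, female cKO 3 being the exception. The log2 fold change was 0.38 ± 0.13, with a 95% interval from 0.09 to 0.67 (adjusted p = 0.596, limma). C1s1 showed no such pattern.

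C1s1 was at 0.78 TPM in the lowest, 2.23 TPM at the median and 3.71 TPM in the highest WT library, and at 1.21, 2.63 and 3.40 TPM in cKO. Every cKO value lay inside the WT range, and the log2 fold change of 0.09 ± 0.35 (adjusted p = 0.989, limma) had a 95% interval from -0.66 to 0.85. Its near copy C1s2 was at 0.172 TPM in WT and 0.187 TPM in cKO on average.

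C4b encodes the component cleaved by C1s. It was at 38.2 TPM in the lowest, 50.2 TPM at the median and 61.3 TPM in the highest WT library, and at 52.6, 68.1 and 87.4 TPM in cKO. Here 4 of 6 cKO libraries were above all WT libraries, with male cKO 1 and male cKO 2 inside the WT range, and 4 WT libraries were below all cKO libraries. The log2 fold change was 0.45 ± 0.13, a ratio of means of 1.37, with a 95% interval from 0.17 to 0.73. Its p ranked at place 188 of 18197 genes, and the adjusted p was 0.387 (limma).

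C3, the central component of all pathways, was low. It was at 0.156 TPM in the lowest, 1.43 TPM at the median and 1.82 TPM in the highest WT library, and at 0.305, 0.952 and 1.69 TPM in cKO. It was the member that varied most, with a coefficient of variation of 47.9% in WT and 59.9% in cKO, and no cKO library was above the highest WT library. The log2 fold change of -0.34 ± 0.51 (adjusted p = 0.956, limma) had an interval from -1.45 to 0.77, so that neither direction was detectable at this spread. With 1 library left out it ran from -0.78 (without male WT 2) to -0.108 (without female cKO 1).

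Cfb, the protease of the alternative pathway, was at 5.46 TPM in the lowest, 6.37 TPM at the median and 8.08 TPM in the highest WT library, and at 6.30, 8.46 and 10.6 TPM in cKO. The highest values, in female cKO 1 and male cKO 3, stood apart from all WT values, and 4 of 6 cKO libraries were above the WT range. The log2 fold change was 0.36 ± 0.14, with a 95% interval from 0.06 to 0.66 (adjusted p = 0.664, limma). Without both libraries of conflicting sex it was 0.36 ± 0.17. It was no longer at an unadjusted p under 0.05 without those libraries, or without female WT 1, female cKO 1, male WT 1 or male cKO 3 alone.

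C3ar1, the receptor for the C3a fragment, was at 0.80 TPM in the lowest, 0.888 TPM at the median and 1.15 TPM in the highest WT library, and at 0.951, 1.12 and 1.5005 TPM in cKO. All 6 cKO values were above the WT median and 2 above the WT range, with male cKO 3 highest. The log2 fold change was 0.30 ± 0.16 (adjusted p = 0.805, limma).

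In all, 0 of the 9 genes were called (adjusted p below 0.05 and more than 1.2-fold apart), where 27 of 18197 genes, or 0.148%, were. By an unadjusted p under 0.05, 4 of 9 (C1qa, C1ra, C4b and Cfb) were higher in cKO, against 4.84% of all genes, and none lower (6.64% of all genes in either direction). 8 of 9 had a log2 fold change above 0, against 55.8% of all genes, and the median was 0.19 against 0.016. None had all 6 cKO values above all 6 WT values, as 0.572% of all genes did. Without both libraries of conflicting sex, the members at an unadjusted p under 0.05 were C4b, C1ra and C3ar1, against 1346 of all 18197 genes. The 9 genes share libraries and were chosen with earlier results of these data known. These counts are therefore a description of the set and not a test of it.

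**Figure D2:**
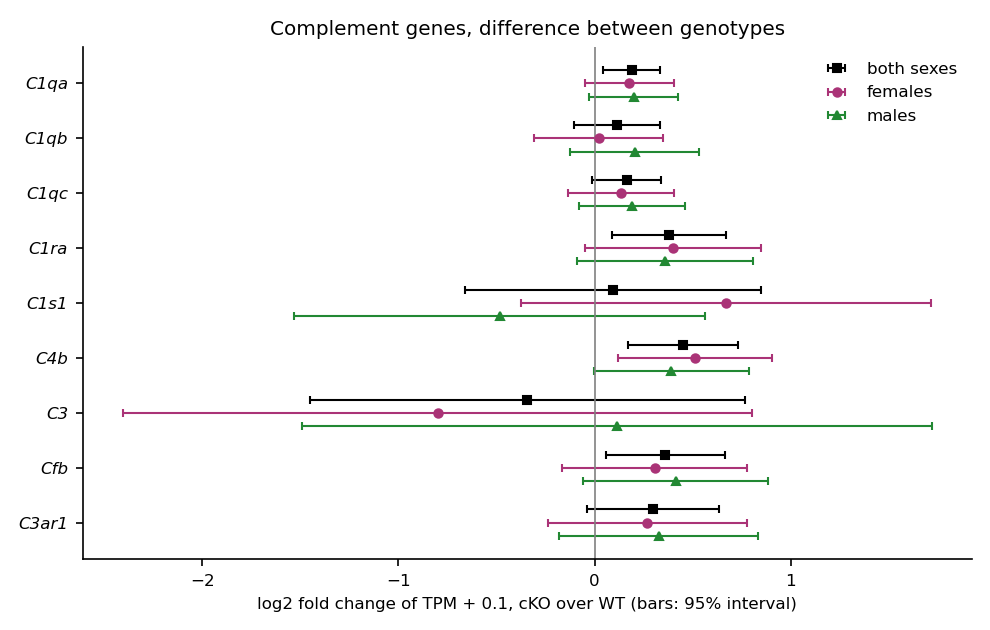
Log2 fold change of TPM + 0.1 in cKO over WT (x axis, bars are 95% intervals) for each complement gene (y axis) in both sexes together (black squares), females (purple circles) and males (green triangles), from limma. The intervals of C1qa, C1ra, C4b and Cfb in both sexes lay above 0, and those of C3 and C1s1 were the widest.

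By library, 2 cKO libraries held the most genes above the WT range. Male cKO 3 had 7 of the 9 genes above the highest WT value and female cKO 3 had 5, whereas the other 4 cKO libraries had 1 to 3. These were also the libraries with the most Serpina3n and Gfap, genes of reactive astrocytes. Serpina3n was at 225 TPM in male cKO 3 and 91.6 TPM in female cKO 3, against 34.7 to 46.7 TPM in WT, and Gfap was at 1267 and 437 TPM against 208 to 285 TPM. The 7 reactive glia markers (Serpina3n, Lcn2, Vim, Cd44, Osmr, Steap4 and Timp1) together summed to 75.0 to 106 TPM in WT and to 77.4 to 395 TPM in cKO. Their mean log2(TPM + 0.1) was 1.95 in female cKO 3, inside the WT range of 1.26 to 2.07, and 3.86 in male cKO 3. In female cKO 3, Osmr and Vim were above the WT range, but Cd44, Timp1, Steap4 and Lcn2 were within it.

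Without both libraries, a choice made after the values were seen, the log2 fold change of C4b was 0.32 ± 0.13 (SE) and that of C1ra 0.47 ± 0.13, both still at an unadjusted p under 0.05 in limma. That of C1qa was then 0.11 ± 0.06 and that of Cfb 0.27 ± 0.16, neither at such a p, and that of C1qb, with -0.03 ± 0.08, had changed direction. In that fit, 1398 of all 18197 genes were at such a p. The part of reactive glia in these differences was not tested.

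**Figure D3:**
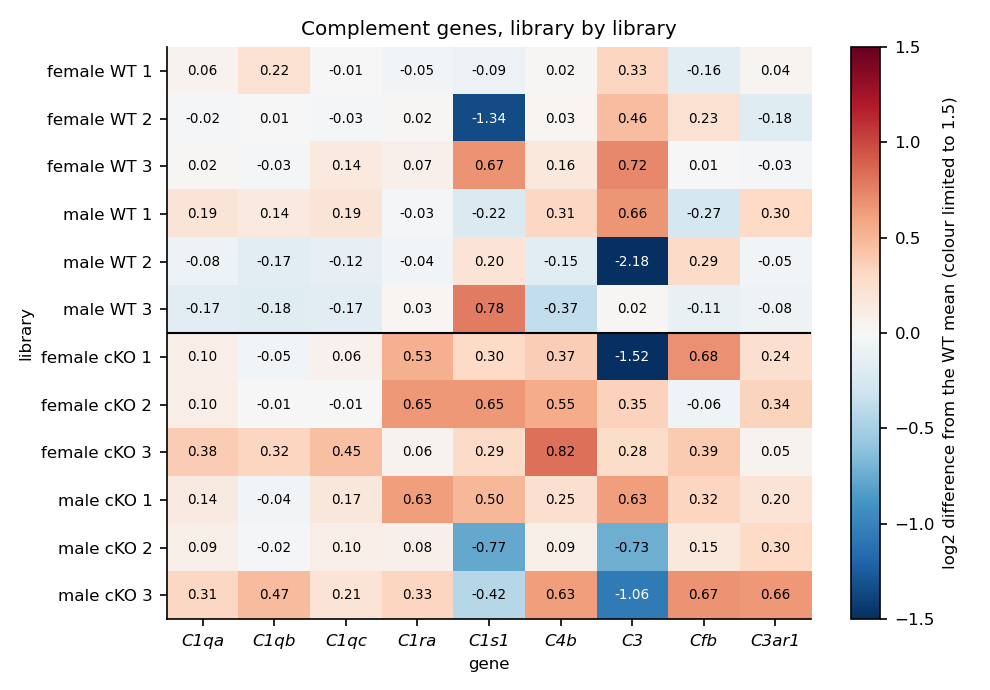
Log2 difference of each complement gene (x axis) from the WT mean of log2(TPM + 0.1) in each of the 12 libraries (y axis, WT above the line), with the value printed and the colour limited to 1.5. Male cKO 3 and female cKO 3 show the strongest C1q and C4b columns, and C3 and C1s1 vary widely within both genotypes.

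Within the sexes, 0 of 9 genes were called in females (0.0165% of all genes called) and 0 of 9 in males (0.0165%). C4b was at a log2 fold change of 0.51 ± 0.18 (SE, adjusted p = 0.804, limma) in females and 0.39 ± 0.18 (adjusted p = 0.88) in males. It was the only one of the 9 with an unadjusted p under 0.05 in females (5.79% of all genes), and none had one in males (5.45%). C1s1 was at 0.67 ± 0.48 in females and -0.48 ± 0.48 in males. With 1 library left out, the female value of C1s1 ran from 0.125 (without female WT 2) to 1.129 (without female WT 3, at an unadjusted p under 0.05) and the male value from -0.848 (without male cKO 1) to -0.216 (without male cKO 2). The difference between the sexes was tested by an interaction term, for which 0 of 9 genes were called (0% of all genes) and 0 of 9 had an unadjusted p under 0.05 (4.23%). For C1s1 it was -1.15 ± 0.67, with a 95% interval from -2.63 to 0.33, and for C4b -0.12 ± 0.25, with one from -0.68 to 0.44. That of C1s1 ran from -1.613 to -0.608 with 1 library left out (without female WT 3 and female WT 2), and was at an unadjusted p under 0.05 in 2 of 12 such fits, those without female WT 3 and without male cKO 1. Without both libraries of conflicting sex, C4b was at 0.39 ± 0.21 in females and 0.43 ± 0.21 in males, no longer at an unadjusted p under 0.05 in females, and C1ra was at 0.58 ± 0.17 in females, now at such a p, and 0.22 ± 0.17 in males. C1s1 was then at 0.73 ± 0.53 in females and -0.85 ± 0.53 in males, with an interaction term of -1.58 ± 0.76. Without both, 0 of 9 genes were again called in either sex or for the interaction, and C1ra in females was the only one at an unadjusted p under 0.05. Of all 18197 genes, 1582 were then at such a p in females, 1644 in males and 1607 for the interaction.

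Within the 9 libraries named CMV (6 cKO and 3 male WT), the log2 fold change of C4b was 0.52 ± 0.19 (SE), of C1ra 0.39 ± 0.18, of Cfb 0.39 ± 0.19 and of C1qa 0.21 ± 0.10, and of these C4b alone was at an unadjusted p under 0.05 in limma. Of all 18197 genes, 931 were at such a p. C3, with 0.16, and C1s1, with -0.16, changed direction. Among WT libraries, C4b was at 49.9 to 55.1 TPM in the 3 named C57 and at 38.2 to 61.3 TPM in the 3 named CMV, which are also the female and the male libraries.

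Across libraries, after the mean of each genotype was subtracted, C1qa and C1qc had a Pearson r of 0.891, C1qa and C4b 0.87 and C1qa and C1qb 0.869 over 12 libraries. C1qb and C1qc had a lower r of 0.648, below C1qc with C4b (0.757) and C1qb with C4b (0.716). The lowest value was -0.615, for C3 and Cfb. These values are a description, since the libraries are shared and TPM is scaled per library. Of 14160 genes that averaged 1 TPM or more, the 5 most like C1qa were Ctss (r = 0.921), a lysosomal protease of microglia, C1qc, Cavin3, Tmem177 and C4b. Those most like C4b were Gm7206 (r = 0.877), C1qa, Tyw1, Oaz1-ps and Pcdhb9. Those most like C3 included Foxj1 (r = 0.96), a transcription factor of ciliated cells, Cyp2j12, Mob3b and Cers2.

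Levels of 9 pairs of a complement gene and a marker list were compared across libraries, with permutation tests of 100000 resamples. Genotype means were not subtracted here, so a difference between genotypes that both levels share enters these correlations and their p-values. None passed after Benjamini-Hochberg adjustment. The closest were C4b with the 11 astrocyte markers (r = 0.662, p = 0.0199, adjusted p = 0.0896, and rho = 0.706, p = 0.0142, adjusted p = 0.113, n = 12) and C4b with the 20 interferon-induced genes (r = 0.656, p = 0.0197, adjusted p = 0.0896, and rho = 0.65, p = 0.0251, adjusted p = 0.113).

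For the astrocyte markers r was 0.694 within the 9 CMV-named libraries, 0.417 without the 2 libraries farthest from the median, 0.907 within the 6 WT and 0.414 within the 6 cKO libraries. For the interferon genes the same values were 0.629, 0.517, 0.776 and 0.117. Both relations thus rested in part on their 2 farthest libraries. Without these, the permutation p was 0.232 for the astrocyte markers and 0.125 for the interferon genes. The summed interferon genes were at 327 to 430 TPM in WT and 394 to 502 TPM in cKO. The mean of the C1q chains and the microglial markers had r = 0.447 (permutation p = 0.142, adjusted p = 0.425, rho = 0.441, permutation p = 0.154, adjusted p = 0.347, n = 12), and those markers summed to 423 to 495 TPM in WT and 449 to 532 TPM in cKO. This r was 0.113 without female cKO 3 (permutation p = 0.738) and 0.771 without male cKO 3 (permutation p = 0.00421, adjusted p = 0.0379), so that a single library decided it.

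**Figure D4:**
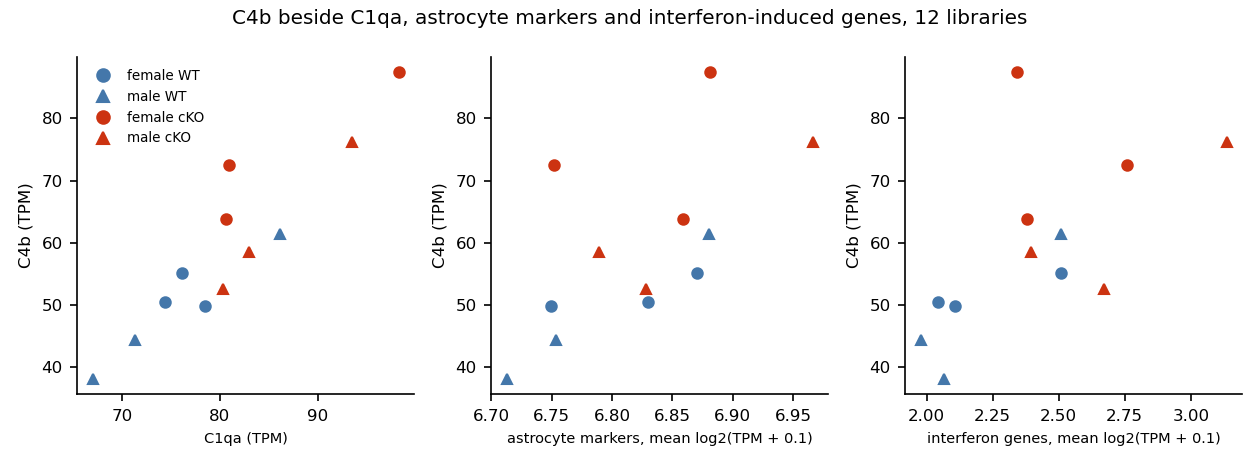
C4b in TPM (y axes) against C1qa in TPM (left x axis) and against the mean log2(TPM + 0.1) of astrocyte markers (middle) and interferon-induced genes (right), 1 point for each of the 12 libraries, coloured by genotype and shaped by labelled sex. C4b ran from 38.2 to 61.3 TPM in WT, and 4 of 6 cKO points lie above that range.

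Of the other complement genes, 54 were listed and 52 were in the table, of which 43 were tested. None was called, where 0.148% of all genes were. A log2 fold change above 0 was found for 33 of 43 (76.7%), against 55.8% of all genes, with a median of 0.11. Mbl1, Cfd and C9 were listed at 0 in all 12 libraries. By group, 8 of 8 classical and lectin pathway genes, 6 of 6 terminal genes, 12 of 18 regulators and 6 of 10 receptors were above 0, and the alternative pathway gene Cfp, properdin, was at 0.06. Of these, C8b (0.045 TPM in WT, 0.186 TPM in cKO) and Fcnb (0.070 and 0.203 TPM) passed the filter only through their cKO levels. Their direction was therefore set by the filter. The lists were chosen with earlier results of these data known, so these counts are a description and not a test. None of the 43 had cKO and WT values that were fully apart, and only 0.572% of all genes had every cKO value above every WT value.

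An unadjusted p under 0.05 was reached by 3 of the 43 genes (limma), all higher in cKO, a share near that of all genes (6.64% in either direction and 4.84% higher). Cd59b, a membrane inhibitor of the terminal complex that was named after its value was seen, was at 7.83 ± 0.87 TPM in WT and 10.2 ± 1.61 TPM in cKO, a log2 fold change of 0.37 ± 0.11 (SE). Its paralog Cd59a was at 0.12 ± 0.15. C1rl, a C1r-like protease, was at 0.296 and 0.482 TPM (log2 fold change 0.57 ± 0.24), and C8b, a terminal component, at 0.045 and 0.186 TPM (0.95 ± 0.35), with 2 libraries at 0. At such low levels the log2 fold change depends on the 0.1 TPM that was added. C8b also passed the filter only through its cKO level, so its direction and p are not a result.

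The regulators and receptors with means of 10 TPM or more differed less between genotypes. Clu, clusterin, an inhibitor of the terminal complex, was at 828 ± 38.9 TPM in WT and 921 ± 110 TPM in cKO (log2 fold change 0.15 ± 0.07, SE). Serping1, the inhibitor of C1r and C1s, was at 10.2 ± 3.63 and 11.1 ± 3.84 TPM. Itgam, a chain of the receptor CR3, was at 11.3 ± 0.751 and 12.1 ± 1.14 TPM. Vtn, Csmd1, Sez6, Calr and C1qbp had log2 fold changes between -0.08 and -0.02, and Cd46 and Susd4 were at 0.01 and 0.11, none at an unadjusted p under 0.05 in limma. Cr2, the receptor CR2, had an interaction term of -2.04 at an unadjusted p under 0.05, with mean levels of 0.29 TPM in WT and 0.354 TPM in cKO and 2 libraries at 0. It was 1 of 43 at such a p for the interaction, against 4.23% of all genes. This term uses the sex labels as given, and its value without both libraries of conflicting sex is not reported here.

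**Figure D5:**
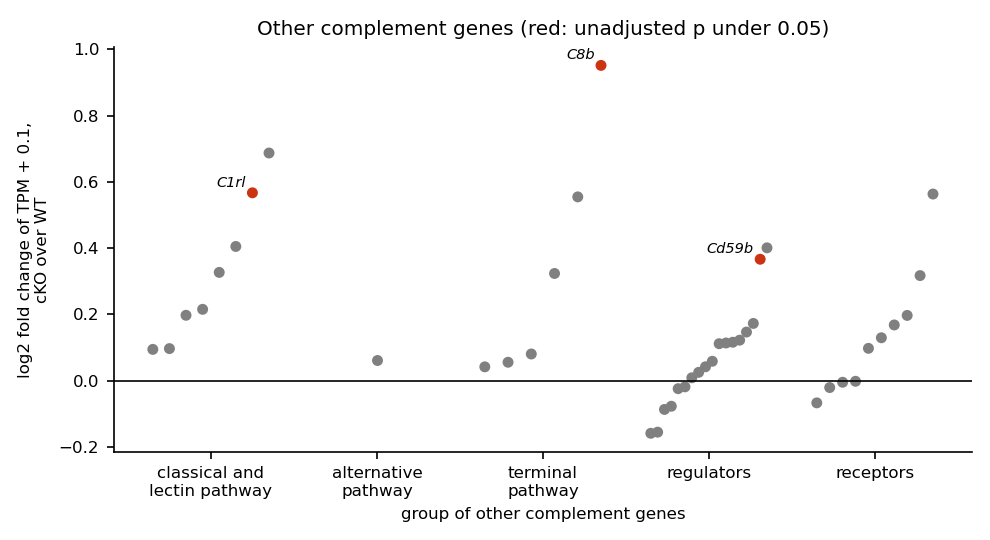
Log2 fold change of TPM + 0.1 in cKO over WT (y axis) for the 43 other complement genes tested, by group (x axis), 1 point a gene, with C1rl, C8b and Cd59b, those with an unadjusted limma p under 0.05, in red. 33 of 43 points lie above 0, among them C8b and Fcnb, which were tested only through their cKO levels.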

How the data were processed

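For each of the 12 hippocampal libraries (poly-A selected, stranded, paired-end) the authors deposited TPM, as columns of a single table. The submitters' processing notes name kallisto and mm10, and the study's methods name STAR and Salmon on GRCm38, so which tool wrote the deposited TPM is not settled. TPM keeps no counts, so the count-based test of the study was replaced by limma (version 3.58.1, R 4.3.3), and depth per library is unknown. IDs were matched to GENCODE M21 (25245 of 26409 genes). A value of 0.1 was added to TPM before the log2 transform, and 18197 genes that averaged 0.1 TPM or more were fitted with a variance prior that follows mean level. Tests were two-sided, with Benjamini-Hochberg adjustment over all of them. Such folds understate the change of low genes. Genes were called where the adjusted p was below 0.05 and the fold change above 1.2, and nominally where the unadjusted p was below 0.05 and the fold change 1.5 or more. Both sexes were compared as 6 against 6 libraries, and single sexes and the interaction in 1 fit of 4 groups. The labels do not say that each library is a separate mouse, so p-values measure the spread between these libraries.

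The members and gene lists were chosen with earlier results of these data known. Named genes were the 9 members, other complement genes called or nominally called, fully apart between genotypes or averaging 10 TPM or more, the near copies C4a, C1rb and C1s2, the 5 genes most like C1qa, C4b and C3 and, as label checks, Dek and the Y-linked genes. Some genes that this rule names are not reported here. Reactive glia and Cd59b were named after their values were seen.

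Alternatives added 0.5 or 1 TPM, dropped the filter or raised it to 1 TPM, scaled by median ratio or quantiles, used a prior without trend, sex as covariate or a replicate block, fitted the CMV-named libraries or a sex alone, and left out both libraries of conflicting sex or each library in turn. Leaving out both libraries with the highest Serpina3n was chosen after seeing the data. Sequences are from RefSeq (GRCm38.p6) and GENCODE M21. Scripts used Python 3.11.15, pandas 2.3.3 and scipy 1.17.1.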

Additional observations from a re-analysis of the deposited data

Results flagged for a closer look

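Among 72 groups of 6 libraries (genes and summed marker levels), 4 held a value far from the other 5, where chance gives about 1 in 20. Vtn, vitronectin, was at 90.6 TPM in male cKO 2, above the other cKO libraries. The microglial markers summed to 532 TPM in female cKO 3, and the reactive glia markers to 395 TPM in male cKO 3, the 2 libraries with the most C1qa. The oligodendrocyte markers summed to 2348 TPM in male WT 2, below the other WT libraries, which was also the library with the least C3.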

How the results depend on the processing

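No complement gene was called in any of the 4 comparisons under any alternative that was run. With both sexes compared together, C4b, C1ra, Cfb, C1qa, C1qc and C3ar1 were higher in cKO under each. In that comparison the limma p of C4b stayed under 0.05 in each of its 24 alternatives, with adjusted p from 0.198 to 0.836.

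The number of genes called in both sexes was 27, and was 17 with no filter, 10 in CMV-named libraries, 12 without both libraries of conflicting sex, 15 without both with the highest Serpina3n, and 13 to 27 with each library left out. In females it was 3, and was 7 with no trend, 6 without the conflicting libraries, 1 in females alone, 10 without the Serpina3n libraries and 1 to 8 with a library left out. In males it was 3, and was 6 with no filter, 6 with no trend, 6 without the conflicting libraries, 6 in males alone and 2 to 7 with a library left out. For the interaction it was 0 (770 genes at an unadjusted p under 0.05, limma), and was 2 with no filter, 2 with no trend, 3 without the conflicting libraries and 0 to 1 with a library left out. The replicate numbers did not pair the libraries (correlations of deviations from -0.038 to 0.045), and with a replicate block 3 genes were called in both sexes, 1 in females and 1 in males.

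Log2 fold changes that changed direction were those of C1s1 in both sexes (-0.16 in CMV-named libraries, -0.059 without the conflicting ones, -0.176 to 0.264 with a library left out), C3 in both sexes (0.159 in CMV-named libraries) and C1qb in both sexes (-0.028 without the Serpina3n libraries). In females they were C1qb (-0.095) and C1qc (-0.006), both without the conflicting or the Serpina3n libraries, with ranges of -0.095 to 0.098 and -0.006 to 0.222 with a library left out. In males it was C3 (-0.001 with 0.5 TPM, -0.022 with 1 TPM, -0.009 with quantile scaling, -0.394 without the conflicting libraries, -0.728 to 0.695 with a library left out).

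Interaction terms that changed direction were C4b (0.039 without the conflicting libraries, -0.273 to 0.071 with a library left out), Cfb (-0.014 without the Serpina3n libraries, -0.094 to 0.279), C3ar1 (-0.034 with quantile scaling, -0.157 without the Serpina3n libraries, -0.077 to 0.18), C1qa (-0.053 to 0.128), C1qc (-0.03 to 0.198) and C1ra (-0.218 to 0.095). Of correlations with markers, C3ar1 with microglia reached 0.626 within WT, 0.336 without the Serpina3n libraries and 0.19 without the 2 farthest libraries (-0.313 to 0.194 with a library left out). C4b with meningeal fibroblasts reached 0.394 within WT and 0.033 without the Serpina3n libraries. Cfb with interferon genes was at -0.562 within WT, -0.118 without the Serpina3n libraries and -0.033 without the farthest (-0.113 to 0.377). C1ra with meningeal fibroblasts was at 0.76 within WT and 0.222 without the farthest (-0.25 to 0.112), and C1s1 at 0.003 without the farthest. Of the 9 relations, 0 passed adjustment and 0 to 1 with a library left out. The cause of these changes was not tested.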
